A study of Mus musculus with 4 samples.

Results

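The domains described here are stretches of chromatin that were called as 1 continuous H4K20me1 region in a mesenchymal stem cell clone and as 2 or more separate regions in the population the clone came from. They were found by position: each is a row of the clone list that shares at least 1 bp with 2 or more rows of the population list, on every chromosome other than 11 and 13. Of the 10535 clone regions on the 18 chromosomes used, 1171 met this rule, or 11.1% (exact Clopper-Pearson 95% interval 10.5 to 11.7%). The number depends on how finely the population list is divided: with population regions within 500 bp of each other joined it was 470 (4.46%), and within 1000 bp 303 (2.88%). The clone list held 11809 regions over all chromosomes. The remaining clone regions on these chromosomes met 1 population region (7757) or none (1607). Because the 2 lists themselves chose the domains, their number and their overlap with the population are descriptions and carry no test.

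Both cultures were mesenchymal stem cells from the bone marrow of C57BL/6 mice, grown to confluence in stem cell medium. MSC21 was the mixed population, and 4L.1.4 was a single clone derived from it, so the clone values describe 1 clone. Chromatin was fixed, sonicated and immunoprecipitated with an antibody against H4K20me1 or, as the control, with non-immune rabbit serum, and sequenced (ChIP-seq). There were 4 libraries, 1 of each kind per culture, and the values used here are the called H4K20me1 regions of each culture in mm9 coordinates. The lists give positions without read counts or enrichment, so the depth behind each region is unknown, the serum background cannot be set beside it, and the labelled cell type could not be checked against marker genes. With 1 library per culture, no difference could be set against replicate error. The intervals below cover counting error only, take regions as independent and leave out variation between cultures.

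H4K20me1 is histone H4 that carries a single methyl group on lysine 20. The mark is written by the methyltransferase KMT5A (SET8), rises through the later part of the cell cycle, and is found over the bodies of many transcribed genes and on the inactive X chromosome. It usually lies in broad stretches instead of sharp peaks. A region caller reports such a stretch whole or in pieces, and a gap in a list is a stretch without a call, which may still carry the mark.

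The bridging domains were wide for this list. Their median width was 8330 bp (quartiles 4460 and 14028.5 bp, range 1227 to 87109 bp), against 3425 bp (quartiles 2186 and 6398.75 bp) for the 9364 clone regions that did not bridge. They made up 20.3% of the clone-marked sequence, 13.3 of 65.6 Mb. Bridging was more frequent among wide clone regions: 2.86% of those under 2000 bp bridged (56 of 1958, 2.17 to 3.70%), as did 16.0% at 5000 to 10000 bp (14.5 to 17.6%) and 35.5% from 20000 bp on (172 of 485, 31.2 to 39.9%). A wide region can meet more neighbours by its width alone, and that part was not separated here.

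Most domains joined a single pair of population regions. Exactly 2 were met by 899 domains (76.8%), 3 by 198 (16.9%), 4 by 49 and 5 or more by 25. In all, the domains met 2697 different population regions, 10.8% of the 25001 on these chromosomes. Of the 2735 meetings, 51.9% involved a population region that lay wholly inside the domain. Population regions in the middle of a chain were narrower, with a median of 1817 bp, than those at the ends of a chain, with 2840.5 bp. Middle regions lie wholly inside the domain and end regions can run past it, so the rule favours this direction. Domains with 4 or more population regions were wide (median 21957 bp), compared with 6791 bp for those with 2. Their filled sequence had a median of 2054.5 bp, against 239 bp for those with 2. A domain with more population regions has more gaps to add up. The median single gap differed less, at 355 bp against 239 bp.

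Several domains show the range of shapes, and each is given with its mm9 position and the population pieces under it. The domain with the most pieces lay on chromosome 7 (137333855 to 137407313, 73.5 kb) and met 9 population regions. Its left 19.5 kb had no population region. The 8 gaps it filled were 243, 162, 2337, 403, 440, 2497, 12 and 603 bp long, so the population list showed short pieces of 727 to 3868 bp followed by a long one of 29670 bp and short ones of 2614 and 1505 bp at the right end. A domain on chromosome 18 (65753478 to 65782841, 29.4 kb) also met 9 population regions, and here the gaps ran from 2 to 1999 bp and came to 4.15 kb. In this domain the population reached further out at both ends, by 433 and 85 bp.

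The next most divided domains lay on chromosomes 5 and 9. The one on chromosome 5 from 24557921 to 24582027 (24.1 kb) met 8 population regions of 1061 to 4668 bp, and its 7 gaps of 371 to 3436 bp took up 36.7% of its length. Another on chromosome 5 (134741689 to 134789625, 47.9 kb) met 7 regions and filled 11.4 kb, mostly near its left end, where gaps of 4959 and 3328 bp lay. On chromosome 9 (100578961 to 100599448, 20.5 kb) 7 population regions were met. There, 4 of the 6 gaps measured 65 to 222 bp and the other 2 were 1366 and 3757 bp. Gaps made up 23.8 to 36.7% of the length of these 3 domains.

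**Figure D1:**
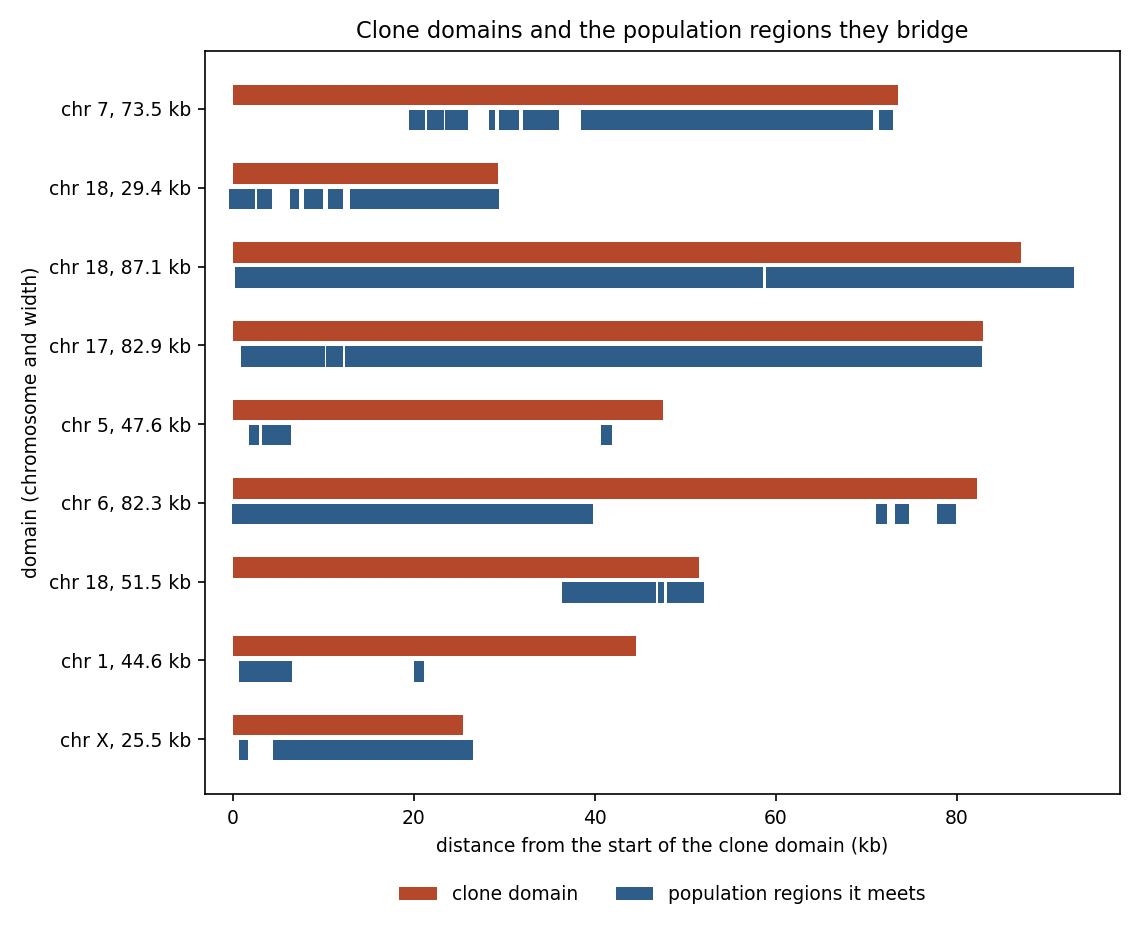
Each pair of bars shows 1 clone domain (red) above the population regions it meets (blue), with the distance from the start of the domain in kb on the horizontal axis; the 9 domains are the first 2 under each of 4 criteria (most population regions, widest, widest single gap, largest extension), leaving out repeats, and the widest of the X chromosome. White spaces between blue bars are the gaps the clone fills: they are thin lines in the 87.1 kb domain and span 34.3 of 47.6 kb in the domain on chromosome 5.

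Of the 5 widest domains, 3 were nearly complete in both lists. The widest of all, on chromosome 18 (83084258 to 83171366, 87.1 kb), was cut in the population list only by a gap of 366 bp between regions of 58335 and 34002 bp. On chromosome 17 (32338324 to 32421205, 82.9 kb) the population list had gaps of 49 and 163 bp, both in the left 15% of the domain, and then a single region of 70396 bp. On chromosome 5 (122162930 to 122237964, 75035 bp) a population region of 60698 bp was followed by gaps of 64, 355 and 67 bp. The filled sequence in these 3 domains came to 0.212 to 0.486 kb each, and the lists differed by more at an outer edge. On chromosome 18 the population reached 5819 bp further at the right. The clone reached further by 960 bp at the left on chromosome 17 and by 1970 bp at the right on chromosome 5. The other 2 did not share this shape. The 73.5 kb domain on chromosome 7, described above, was covered to 63.6%. The domain on chromosome 6 (113027975 to 113110244, 82.3 kb) was covered to 54.4%: next to a population region of 39833 bp it filled a gap of 31.2 kb and then gaps of 901 and 3080 bp.

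Population regions covered most of a typical domain. The median share covered was 87.1% (order-statistic 95% interval 86.0 to 88.5%, quartiles 70.7 and 95.6%, range 7.78 to 99.99%). Added up over all domains, 81.6% of the sequence was covered, 8.79% lay in filled gaps (1172 kb) and 9.62% lay beyond the outermost population edges (1282 kb). In 500 domains (42.7%) at least 90% was covered, and in these the widest gap had a median of 152 bp. In 108 domains (9.22%) less than 50% was covered. Among those 108, sequence beyond the outer edges exceeded the filled gaps in 83. It made up 46.0% of their length, against 20.8% in gaps. In the other 25 the gaps held as much or more. The share covered was also lower in domains with 3 population regions (median 81.8%) and 4 or more (82.5%) than in those with 2 (89.0%).

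The least covered domains came in small and large forms. The lowest share, 7.78%, belonged to a domain of only 1709 bp on chromosome 6 (108212988 to 108214696), which spanned a gap of 1576 bp and touched the population regions on either side with 133 bp in all. A similar case on chromosome 18 (65838385 to 65840087, 1703 bp) spanned a gap of 1463 bp and was 14.1% covered. In both of these the clone region sat on the gap itself, and the population regions ran on outward for 0.982 to 2.21 kb. The others were wide. On chromosome 5 (75552024 to 75599621, 47.6 kb) 3 population regions of 1056, 3122 and 1201 bp covered 11.3%. On chromosome 2 (22848619 to 22864375, 15.8 kb) regions of 1250 and 665 bp covered 12.2%, and on chromosome 18 (39593994 to 39619999, 26006 bp) regions of 1764 and 1747 bp covered 13.3%.

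The clone filled 1564 gaps of the population list in these domains. Neighbouring population regions on the 18 chromosomes left 24983 gaps in all, so 6.26% were filled from end to end by a single clone region. Filled gaps were short: the median was 284.5 bp (258 to 312 bp, quartiles 94 and 882.25 bp, range 2 to 34331 bp). The median over all 24983 population gaps was 2990 bp. Of the filled gaps, 26.02% (407) were under 100 bp and 64.5% under 500 bp. In 276 domains (23.6%, 21.2 to 26.1%) every gap was under 100 bp, and in 699 (59.7%, 56.8 to 62.5%) every gap was under 500 bp. Within these domains the breaks in the population list were short beside the regions they separate. At the outer edges the lists could differ by far more. A chromosome 18 domain (7869884 to 7921429) with gaps of 179 and 327 bp ran 36438 bp past the left population edge. In 86.2% of cases the gap was narrower than both population regions beside it, which had median widths of 1566 bp (the narrower) and 4617.5 bp (the wider). The narrowest of these flanking regions was 614 bp, so every gap under 500 bp met this by its size alone.

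Although few, long gaps held most of the filled sequence. Gaps of at least 1000 bp were 21.99% of the number and 72.2% of the filled base pairs. The 20 gaps of at least 5000 bp held 16.2%, and lay in 20 different domains with a median width of 20432 bp and a median coverage of 50.9% (11.3 to 83.4%). Of these 20 gaps, 11 were wider than both population regions beside them, as were 68 of all 1564 (4.35%).

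The widest filled gap measured 34331 bp on chromosome 5 (75558448 to 75592778), inside the 47.6 kb domain that was covered to 11.3%. Its neighbours in the population list were 3122 and 1201 bp wide. The next, of 31228 bp, was the gap on chromosome 6 (113067788 to 113099015) between regions of 39833 and 1277 bp. A gap of 13423 bp on chromosome 1 (95153358 to 95166780) lay in a domain of 44.6 kb (95146743 to 95191322) that also ran 23.5 kb past the last population region. A domain of 27.2 kb on chromosome 5 (4076981 to 4104146) filled a gap of 11398 bp (4090969 to 4102366) and ran 11.2 kb past the left population edge. The last of the 5 widest gaps, of 9710 bp, lay on chromosome 2 (22852329 to 22862038). In the population list these stretches lay between regions of 665 to 5889 bp, except on chromosome 6, where 1 side was broad.

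The share of population gaps that was bridged fell with gap size. Of the gaps under 100 bp, 18.9% were bridged (407 of 2150, 17.3 to 20.7%). This share was 9.76% at 500 to 1000 bp (211 of 2161), 3.81% at 2000 to 5000 bp (125 of 3279) and 0.0468% from 10000 bp on (4 of 8556). At every size up to 10000 bp, 53.3 to 56.5% of the gaps lay between population regions that no clone region met. Where the clone met both neighbours, 70.9% of the gaps under 100 bp were bridged (67.0 to 74.6%, 407 of 574). The value was 59.1% at 100 to 500 bp, 46.3% at 500 to 1000 bp, 36.3% at 1000 to 2000 bp and 22.4% at 2000 to 5000 bp. From 5000 to 10000 bp it was 5.23% (3.02 to 8.35%). The intervals of neighbouring size classes did not overlap. A gap wider than a clone region cannot be bridged by it, so a fall with size follows in part from the widths of the clone regions.

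Short gaps between met neighbours were also left unbridged. In 125 gaps under 100 bp the clone met both population neighbours and left the gap uncovered as well, and 42 more gaps of that size between met neighbours were partly covered. The distance from these gaps to the nearest clone edges was not measured, so a break at the same place in both lists was not tested. Over all sizes, 1160 gaps (4.64%) were uncovered between neighbours that the clone met on both sides, with a median of 2723.5 bp, longer than the filled gaps.

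**Figure D2:**
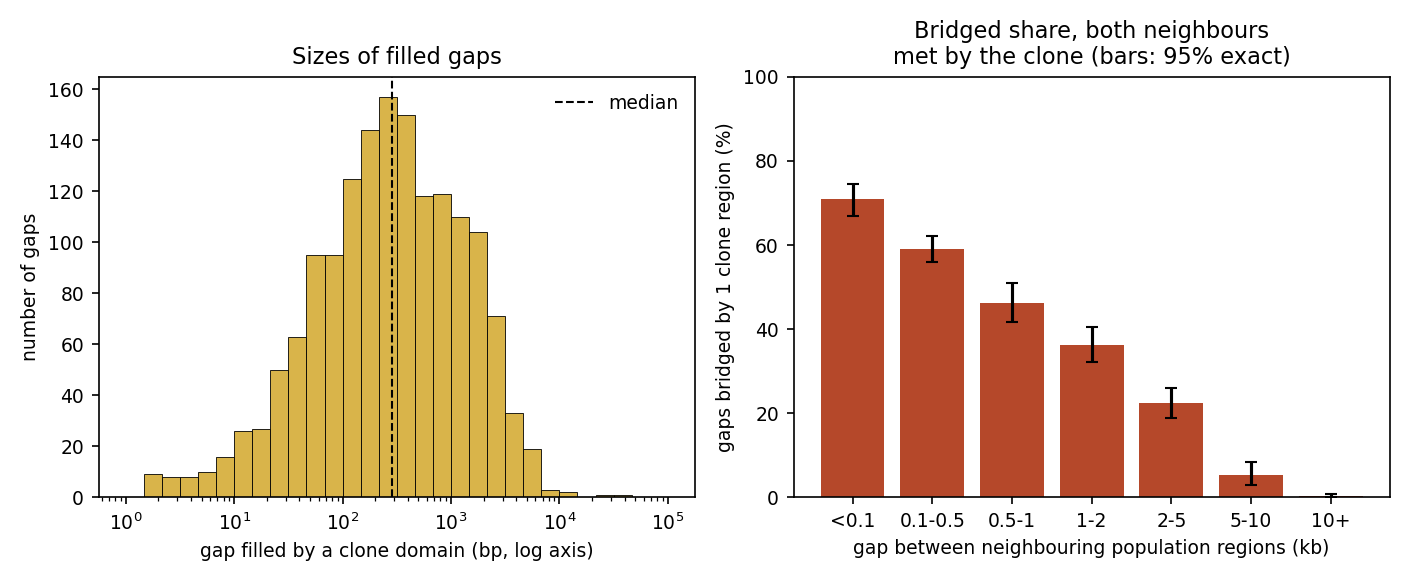
Left, number of filled gaps by size in bp on a log axis, with the median of 284.5 bp as a dashed line. Right, share of population gaps bridged by 1 clone region among gaps whose neighbours on both sides are met by the clone, by gap size in kb, with exact 95% intervals: it falls from 70.9% under 0.1 kb to 0.320% from 10 kb on.

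Filled gaps occurred along the whole length of the domains. The median position of a gap, from 0% at the left end to 100% at the right, was 49.5% (quartiles 28.3 and 71.3%). The middle 20% of the domain held 380 gaps (24.3%, 22.2 to 26.5%), and the first and last 20% held 271 (17.3%, 15.5 to 19.3%) and 269 (17.2%, 15.4 to 19.2%). Gaps near the ends were shorter, with medians of 176 and 189 bp in the first and last 20%, against 403, 324 and 339 bp in between. A long gap cannot have its midpoint close to an end, so part of this difference is set by geometry. In domains with only 2 population regions, 315 of 899 gaps (35.0%) lay in the outermost 20% at either end. The largest overlap made up at least 90% of the covered sequence in 227 domains (19.4%), so these had 1 main population region and small overlaps with 1 or more others. In the 272 domains with 2 or more gaps, the widest held a median of 73.8% of the filled sequence.

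**Figure D3:**
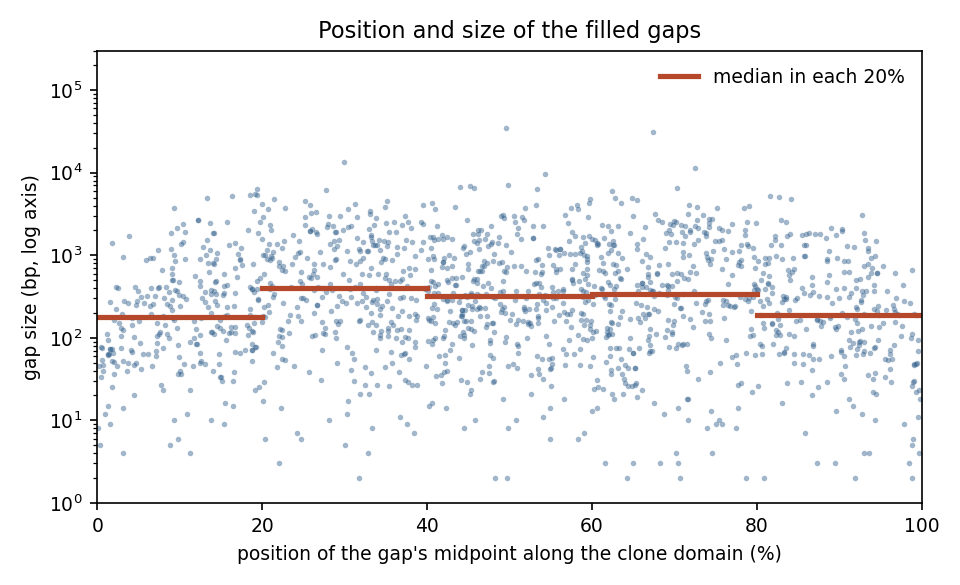
Each point is 1 of the 1564 filled gaps, with the position of its midpoint along the clone domain in percent and its size in bp on a log axis; red lines are the medians in each 20% of the domain. Gaps lie along the whole domain, and the medians of the first and last 20% (176 and 189 bp) are below those in between (324 to 403 bp).

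At their outer edges the domains more often ended inside the population regions than outside them. The clone reached further out at 1024 of 2342 edges (43.7%, 41.7 to 45.8%), the population at 1316 (56.2%, 54.2 to 58.2%), and both ended at the same base at 2. The median signed extension was -61 bp (-83 to -38 bp), negative where the population reached further, and was similar at left (-67 bp) and right edges (-50 bp). This sign was not stable. The median was 26 bp (-13 to 76 bp) in domains with 3 or more population regions. It was 11.5 bp (-29 to 44 bp) after population regions within 500 bp had been joined, and -1.5 bp (-20 to 16 bp) for clone regions of at least 5000 bp. Each of these intervals holds both signs, so the direction is not settled in these settings. The edges were close together in many cases, with 30.7% within 200 bp and 47.0% within 500 bp. Both ends of the domain lay outside the outermost population regions in 260 domains (22.2%), both lay inside in 406 (34.7%), and 504 (43.04%) reached further at 1 edge only.

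The sizes at the edges were uneven. Where the clone reached further, it did so by a median of 496.5 bp (quartiles 133.75 and 1435.25 bp), and where the population did, by 700.5 bp (quartiles 169 and 2480.25 bp). Overhangs of the population of at least 10000 bp were found at 98 edges and extensions of the clone of that size at 13. Added up edge by edge, the population regions ran 3807 kb past the domains and the domains 1282 kb past the population regions. These sums are not alike. The 1282 kb held no population region, but an overhang of the population can hold other clone regions. In 312 domains a population region that was met also met another clone region. The 3807 kb is therefore not a measure of sequence without a clone region. Narrow domains were overhung more often. The clone reached further at 17.0% of the edges of domains under 2000 bp and 31.3% at 2000 to 5000 bp. The share was 47.1% at 5000 to 10000 bp and 52.9% from 20000 bp on. A domain must span a gap and reach into the outermost population region on each side. The narrowest of these outermost regions was 627 bp. A narrow domain thus has little room to pass their outer edges. The rule favours this trend, and that part was not separated here.

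The largest extensions of the clone were one-sided. On chromosome 18 (7869884 to 7921429, 51.5 kb) the clone ran 36.4 kb past the left population edge, while at the right the population reached 0.491 kb further. The 3 population regions there were 10337, 731 and 4025 bp wide and all lay in the right part of the domain. The 44.6 kb domain on chromosome 1 extended 23.5 kb to the right and 0.726 kb to the left. On chromosome 15 (7079927 to 7106888, 27.0 kb) the extension was 22.1 kb to the right, past population regions of 3061 and 1344 bp. The domain on chromosome 18 from 39593994 to 39619999 extended 21.9 kb to the right and -0.045 kb at the left. In each of these 4 domains the population list marked 1 end of the domain, or in the case of chromosome 1 the left part.

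**Figure D4:**
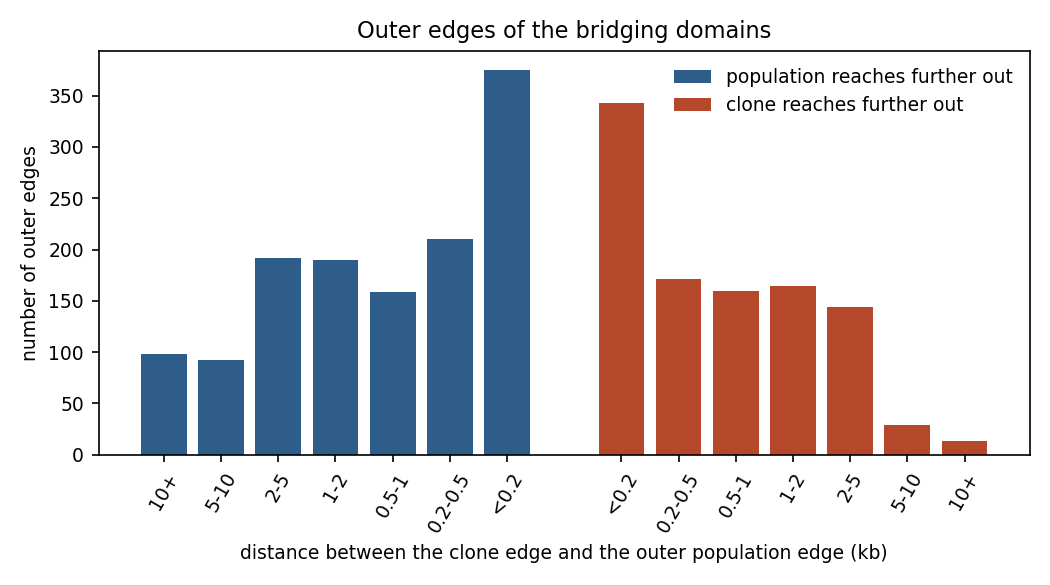
Number of outer edges of the 1171 domains by the distance in kb between the clone edge and the outermost population edge; blue bars on the left are edges where the population reaches further out and red bars on the right those where the clone does, and the 2 edges at the same base are left out. Short distances are the most frequent on both sides, and distances over 10 kb are seen at 98 edges for the population and 13 for the clone.

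Bridging domains were found on all 18 chromosomes, with uneven shares. Chromosome 5 had the most (145 of 951 clone regions, 15.2%, exact interval 13.02 to 17.7%), and chromosome 18 had 61 of 419 (14.6%, 11.3 to 18.3%). The lowest shares were on chromosomes 15 (24 of 476, 5.04%, 3.26 to 7.41%) and 3 (26 of 450, 5.78%, 3.81 to 8.35%), followed by chromosomes 1 (8.02%, 6.13 to 10.3%) and 4 (8.03%, 6.30 to 10.1%). The intervals of these 6 chromosomes left out the share of all chromosomes together, and those of the other 12 included it. As neighbouring regions are not independent, these intervals are too narrow. Of the population gaps, 10.4% were bridged on chromosome 5 and 2.19% on chromosome 3. These chromosomes had 951 and 450 clone regions for 1914 and 1282 population regions. The median clone width was 4391 bp on chromosome 5 and 3654.5 bp on chromosome 3, but also 4348 bp on chromosome 1, where the share was low. How far number and width bear on the shares was not tested. The median filled gap ranged from 160 bp on chromosome 12 (43 gaps) to 463 bp on chromosome 8 (150 gaps), and the median share covered from 81.7% on chromosome 5 to 93.3% on chromosome 12.

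The X chromosome carried 19 bridging domains among 222 clone regions (8.56%, 5.23 to 13.04%), with 24 filled gaps of 296.5 bp at the median. Its widest domain (162890833 to 162916300, 25.5 kb) filled a gap of 2706 bp between population regions of 1042 and 22089 bp. Its values lay within the range of the autosomes in share, gap size and coverage.

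**Figure D5:**
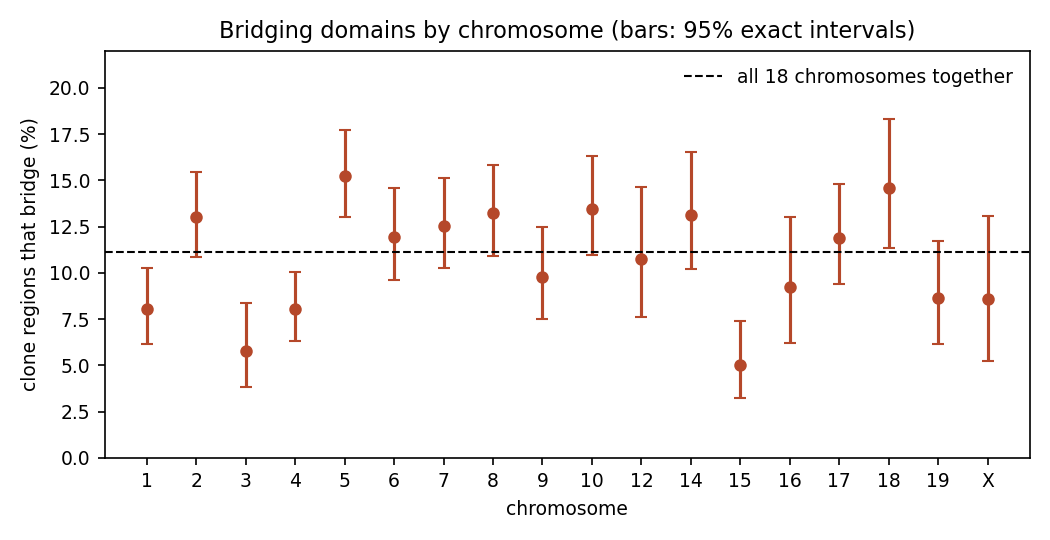
Share of clone regions that bridge 2 or more population regions on each chromosome in percent, with exact 95% intervals that cover counting error only; the dashed line is the share over all 18 chromosomes, 11.1%. Chromosomes 5 and 18 lie above the line and chromosomes 1, 3, 4 and 15 below it with their whole intervals.

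Among the 1171 domains, 356 (30.4%, 27.8 to 33.1%) had another bridging domain as the next clone region on 1 side or the other. Among the 9364 clone regions that did not bridge, 1822 (19.5%, 18.7 to 20.3%) had a bridging domain next to them. In 38 neighbouring pairs of domains a population region was shared. The domains started in 628 bins of 1 Mb, 344 of which held 1 domain and 32 of which held 5 or more. The fullest bin, on chromosome 4 (57000001 to 58000000), held 9 domains among its 34 clone regions and 55 population regions, with 14 filled gaps amounting to 10.5 kb. The bin on chromosome 18 from 79000001 to 80000000 held 8 domains among 19 clone regions and 43 population regions, with 13 gaps amounting to 3.63 kb. On the X chromosome 6 of the 19 domains lay in 1 bin (13000001 to 14000000).

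The opposite arrangement, a population region that meets 2 or more clone regions, was found 1398 times on the same chromosomes, or in 5.59% of the population regions. Those regions were wider (median 14169.5 bp), were covered to a median of 81.2%, and filled 2093 gaps of the clone list with a median of 346 bp (quartiles 126 and 1305 bp), against 284.5 bp for the gaps filled by the clone. They filled 2576 kb, compared with 1172 kb filled by the clone domains. These population regions reached past the outermost clone regions at 69.5% of their edges, with a median extension of 227.5 bp. The clone domains reached past the population at 43.7% of theirs, with a median of -61 bp. The arrangements also occurred in a chain: 312 bridging domains (26.6%) met at least 1 population region that itself met 2 or more clone regions. Among the 7757 clone regions that met a single population region the share was higher, 40.4% (3137). The 4620 clone regions that paired with exactly 1 population region, itself meeting no other, had a median width of 3889.5 bp and a median coverage of 99.7%. The clone reached further at 37.1% of their edges. Each of these sets was chosen by the overlap of the same lists, so their values are set side by side and not tested.

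The rule has a threshold of 1 bp, and some domains passed it narrowly. With at least 100 bp shared with each population region, 1079 of the 1171 domains remained. The second-largest overlap of a domain with a population region had a median of 1349 bp and a 5th percentile of 49.5 bp. The smallest second overlaps were 2 bp, on chromosome 2 (144224273 to 144226107), and 3 bp each on chromosomes 18 (57514929 to 57526051) and 12 (112776883 to 112783903). Just outside the rule, 3 clone regions, on chromosomes 17 (17334640 to 17335849), 16 (56703809 to 56707709) and 5 (114315789 to 114323349), met 1 population region and ended directly beside another, at a distance of 0 bp. Among the 7757 clone regions that met 1 population region, 233 (3.004%) had another within 100 bp and 1158 (14.9%) within 500 bp.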

How the data were processed

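H4K20me1 ChIP-seq of the MSC21 population and the clone 4L.1.4 was represented by 2 region lists. Each row as deposited holds a chromosome with a start and an end in bp, and the authors gave no other value per region. Tools and build named in the submitters' processing notes are CASAVA 1.8.1, Bowtie and mm9, without roles. How regions were called, and whether serum served as control, is not given in the sources used here. Starts were read as counted from 0 and are printed counted from 1; were they counted from 1, 3 more clone regions would meet the rule.

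The members and lists were chosen with earlier results of these data known. For each domain the covered sequence, the gaps between neighbouring population regions and the signed distance at each outer edge were computed (Python 3.11.15, numpy 2.4.6, scipy 1.17.1). Shares have exact Clopper-Pearson 95% intervals and medians order-statistic ones. The code was tested on simulated lists. Domains named are the first 5 by number of population regions, width, widest gap, filled sequence, extension and lowest coverage, the widest of X, the fullest bins and those at the threshold. Alternatives were joining regions, minimum widths or overlap, autosomes only and 3 or more regions. Genes and sequences were not assigned, since no mm9 genome or annotation was used here.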

Additional observations from a re-analysis of the deposited data

How the results depend on the processing

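Of 54 recomputed values, 23 stayed within 1.5 times (numbers) or within the 95% interval (shares and medians), 29 left it and 2 changed sign. Both sign changes were in the median extension, with intervals that held both signs. The cause was not tested beyond what each setting does by construction. Joining population regions within 500 bp left 470 domains (4.46% of clone regions), 553 filled gaps, a median gap of 1291 bp, a median coverage of 76.1% and a median extension of 11.5 bp. Joining them within 1000 bp left 303 domains (2.88%), 344 gaps, 1811 bp, 71.8% and -1.5 bp. Joining within 100 bp, chosen after seeing the data, gave 8.48% of clone regions, 475 bp, 84.0% and -36.5 bp, with 893 domains. Requiring 3 or more population regions left 272 domains (2.58%), 665 gaps, 358 bp, 82.0% and 26 bp. With clone regions within 1000 bp joined, 18.6% bridged, the median gap was 353.5 bp and the coverage 89.4%. Among clone regions of at least 5000 bp, 21.1% bridged, with a median gap of 339 bp and an extension of -1.5 bp. An overlap of at least 100 bp gave 10.2% and an extension of -27.5 bp, and leaving out population regions under 1000 bp gave 10.1%. Autosomes alone left all 6 values within their limits. Unknown depth and calling settings limit every statement about gaps. No paired analysis was possible because there was only 1 H4K20me1 library per culture.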
